A study of Mus musculus with 4 samples.

Results

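The genes described here encode 10 cytokine receptor chains, out of 55359 Ensembl gene identifiers counted in T8 leukemia cells. They were chosen by name: *Ifnar1*, *Ifnar2*, *Ifngr1*, *Ifngr2*, *Il10ra*, *Il10rb*, *Il4ra*, *Il21r*, *Il6ra* and *Il6st*. The list was labelled as interferon and class II cytokine receptors, but only the first 6 belong to the class II family. The other 4, *Il4ra*, *Il21r*, *Il6ra* and *Il6st*, encode class I cytokine receptors and are called that below. All 10 had enough counts to be among the 14637 genes tested.

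T8 is a pB-ALL cell line grown out of 1 spontaneous tumor of an *Irf4*-/- mouse, so all libraries come from a single tumor, and cells of wild-type genotype were not analysed here. Cells were transduced with EV-RV, a retrovirus coding for GFP alone, or IRF4-RV, which codes for GFP plus IRF4, and cells still viable a day later were sequenced. There were 2 libraries per group, which the design text of the series describes as biological replicates. The line was first grown on ST2 stromal cells with IL-7 and, according to the paper, carries an acquired *Jak3* mutation in both groups. The growth and treatment text of the labels names the line T11, while titles and tissue name T8.

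The libraries held between 31230223 and 37817752 counts. A level of 3 counts, taken as the lowest that can be shown, was between 0.0823 and 0.0951 CPM, the counts of a gene scaled to a common library total with TMM factors. *Irf4*, the gene supplied by the vector, was at 242 and 241 CPM under EV-RV, against 2820 and 2489 CPM under IRF4-RV. EV-RV does not code for IRF4. Under IRF4-RV, reads of the vector and of the endogenous locus are not told apart. Of 12 B-lineage markers, *Rag1* and *Rag2* had at most 1 count in a library, and *Cd79a*, *Cd79b*, *Pax5* and the others were present. The 12 summed to 3626 and 3793 CPM under EV-RV, against 2717 and 2694 CPM under IRF4-RV. Most of the drop was in *Vpreb1*, from a mean of 665 to 237 CPM, and *Igll1*, from 953 to 388 CPM. *Cd79a* had means of 915 CPM under EV-RV and 906 CPM under IRF4-RV, and *Blnk* rose from 108 to 222 CPM. A list of 10 stromal markers summed to 48.5 and 91.0 CPM under EV-RV, against 48.3 and 226 CPM under IRF4-RV, so that IRF4-RV replicate 2 stood apart. T-cell and NK-cell markers, mostly *Trac*, summed to between 12.8 and 20.3 CPM, and 5 of 13 were at 0 in every library.

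Receptors of these families have no kinase of their own. A ligand brings together different chains, and the JAK kinases bound to their tails phosphorylate STAT factors, which move to the nucleus. IFNAR1 and IFNAR2 form the receptor for type I interferons and use TYK2 and JAK1, with STAT2 and IRF9 among the factors downstream. IFNGR1 and IFNGR2 bind interferon gamma and use JAK1 and JAK2. IL10RA binds IL-10, and IL10RB is the shared chain that also serves IL-22 and the lambda interferons. IL4RA and IL21R pair with the common gamma chain, the product of *Il2rg*, which carries JAK3 and also serves IL-7. IL6RA binds IL-6, and gp130, the product of *Il6st*, carries the signal for IL-6, LIF, oncostatin M and related cytokines. In B cells, IL-4 and IL-21 act on activation and class switching, and interferons induce antiviral genes.

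With IRF4-RV, *Ifnar1*, *Ifnar2*, *Ifngr2*, *Il10ra*, *Il10rb* and *Il6ra* rose and *Il21r* fell. *Ifngr1*, *Il4ra* and *Il6st* did not pass the test. Calls were made with edgeR's quasi-likelihood test at an FDR of 0.1 over all genes, where 16% of genes were called higher, 13.7% lower and 29.7% either way (31.5% either way with library size only). Of the 6 class II chains 5 were higher and 0 lower (0 also at an unadjusted p under 0.05, and 0 with DESeq2), and of the 4 class I chains 1 was higher and 1 lower. The higher class I chain, *Il6ra*, had enough counts to be tested through the IRF4-RV libraries alone. The median log2 fold change of the 10 genes was 0.55, against 0.0073 over all genes tested. In 8 of the 10 genes the libraries of the groups did not overlap, which held for 61.3% of all genes tested. In 6 of the 10 genes both IRF4-RV libraries lay above both EV-RV libraries, which held for 31.3% of all genes tested.

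**Figure D1:**
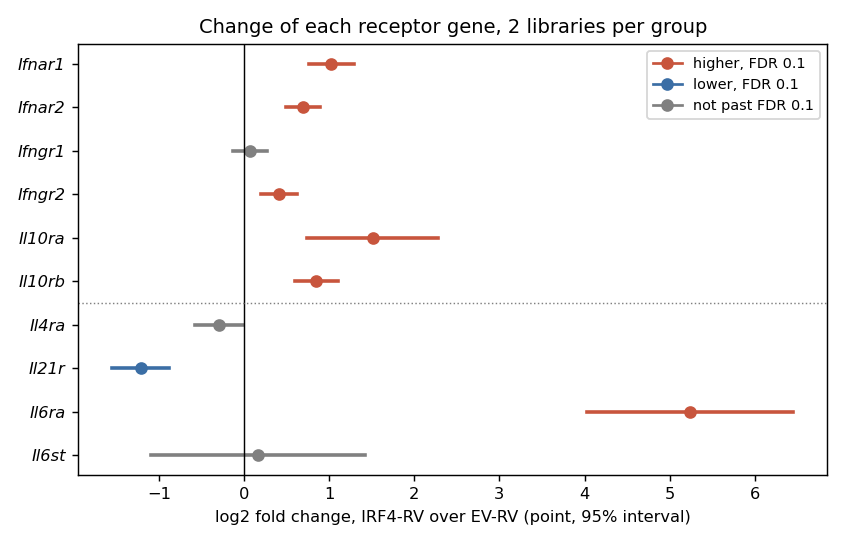
Log2 fold change of each receptor gene, IRF4-RV over EV-RV (x axis), with its 95% interval, for the class II chains above the dotted line and the class I chains below it, colored by call at an FDR of 0.1. *Il6ra* lies far to the right at 5.24 and *Il21r* is the call on the left at -1.22, while the interval of *Il6st* reaches from -1.10 to 1.42.

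Levels can be compared between genes per length, as RPKM, CPM divided by kilobases of exon. In EV-RV cells the order was *Ifngr1* at 19.0 ± 0.632, *Ifnar2* at 8.14 ± 0.0966, *Ifngr2* at 6.90 ± 0.0418, *Ifnar1* at 5.06 ± 0.604, *Il21r* at 4.12 ± 0.0384, *Il4ra* at 2.77 ± 0.198 and *Il10rb* at 2.37 ± 0.0938 RPKM (SD, n = 2 each). *Il10ra* at 0.276 ± 0.045, *Il6st* at 0.182 ± 0.0897 and *Il6ra* at 0.00703 ± 0.00476 RPKM (SD, n = 2 each) came last. The libraries of neighbors in this order did not overlap, except for *Il10ra* and *Il6st*, where EV-RV replicate 2 had 0.2446 RPKM of *Il10ra* and 0.2456 RPKM of *Il6st*. In IRF4-RV cells *Il21r* at 1.77 ± 0.290 RPKM lay below *Il10rb* at 4.27 ± 0.0913 and *Il4ra* at 2.26 ± 0.266 RPKM (SD, n = 2 each). Over the 4 libraries *Ifngr1* exceeded 79.3% of the genes tested, and *Il6ra* exceeded 5.49%.

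**Figure D2:**
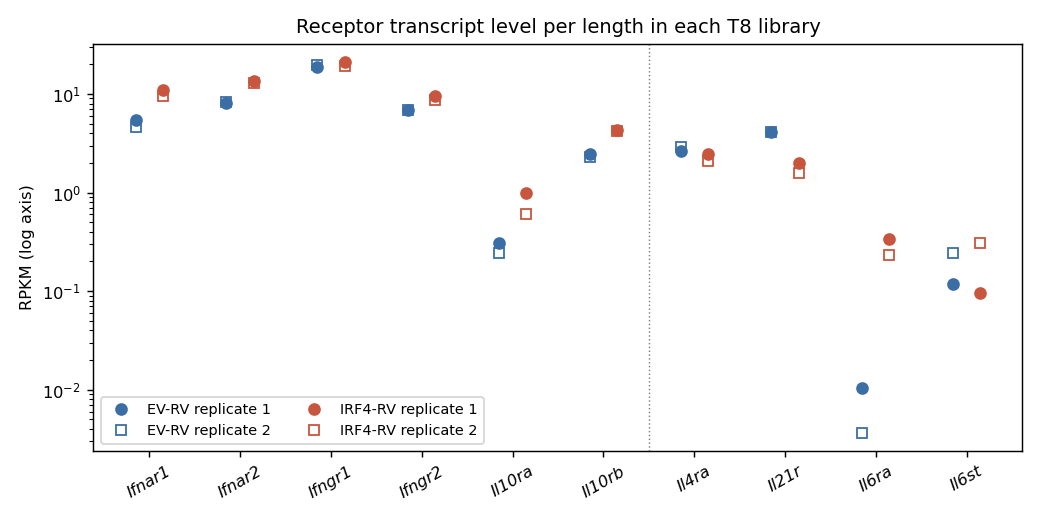
RPKM of each receptor gene (log axis) in the 4 libraries, EV-RV in blue and IRF4-RV in red, replicate 1 filled and replicate 2 open. The interferon receptor chains sit near the top, *Ifngr1* with 18.6 to 20.9 RPKM, and *Il6ra* moves from 0.0104 and 0.00367 RPKM to 0.338 and 0.232 RPKM.

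*Ifnar2*, *Il10rb*, *Ifnar1* and *Ifngr2* lie in this order within 192.8 kb on the plus strand of chromosome 16, and all 4 rose with IRF4-RV. In GRCm38, *Ifnar2* (ENSMUSG00000022971) spans 91372783 to 91405589, *Il10rb* (ENSMUSG00000022969) 91406164 to 91425834, *Ifnar1* (ENSMUSG00000022967) 91485238 to 91507441 and *Ifngr2* (ENSMUSG00000022965) 91547072 to 91565623. They are neighbors and not replicates of each other.

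The promoters of 3 of these genes are shown because the genes moved together, beside that of *Ifngr1*, the partner of *Ifngr2* that did not pass the test, and those of *Il21r* and *Il6ra*, which had the largest fall and rise. Each is the 250 bases before the RefSeq start site on GRCm38.p6, 5′ to 3′ on the strand of the gene. Capitals mark matches on either strand to a GC box (GGGCGG) or to a GAS element (TTCNNNGAA), the site bound by STAT dimers.
Ifnar2, chr16:91372533-91372782, plus strand: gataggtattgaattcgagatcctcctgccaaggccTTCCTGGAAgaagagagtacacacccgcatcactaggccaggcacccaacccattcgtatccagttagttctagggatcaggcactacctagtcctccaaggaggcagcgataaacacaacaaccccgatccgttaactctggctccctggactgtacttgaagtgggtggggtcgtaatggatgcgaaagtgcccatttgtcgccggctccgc
Ifnar1, chr16:91484965-91485214, plus strand: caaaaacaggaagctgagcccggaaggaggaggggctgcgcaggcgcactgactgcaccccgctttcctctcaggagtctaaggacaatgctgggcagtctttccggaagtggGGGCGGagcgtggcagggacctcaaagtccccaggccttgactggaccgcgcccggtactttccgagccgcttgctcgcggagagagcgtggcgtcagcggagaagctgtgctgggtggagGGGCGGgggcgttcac
Ifngr2, chr16:91546809-91547058, plus strand: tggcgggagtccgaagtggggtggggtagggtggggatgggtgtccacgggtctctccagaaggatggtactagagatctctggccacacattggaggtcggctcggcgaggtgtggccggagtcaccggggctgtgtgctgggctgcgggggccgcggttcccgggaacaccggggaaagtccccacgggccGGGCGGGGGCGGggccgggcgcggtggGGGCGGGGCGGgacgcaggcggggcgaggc
Ifngr1, chr10:19591699-19591948, plus strand: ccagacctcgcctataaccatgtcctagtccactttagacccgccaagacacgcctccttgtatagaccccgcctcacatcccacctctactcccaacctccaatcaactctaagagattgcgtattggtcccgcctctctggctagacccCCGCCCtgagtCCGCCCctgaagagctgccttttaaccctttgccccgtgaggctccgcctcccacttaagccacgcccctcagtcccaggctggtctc
Il21r, chr7:125603179-125603428, plus strand: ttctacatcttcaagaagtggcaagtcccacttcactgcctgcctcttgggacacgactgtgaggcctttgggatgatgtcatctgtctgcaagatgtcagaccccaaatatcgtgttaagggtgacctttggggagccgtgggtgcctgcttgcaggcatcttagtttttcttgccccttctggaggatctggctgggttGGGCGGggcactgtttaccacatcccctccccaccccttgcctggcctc
Il6ra, chr3:89913197-89913446, minus strand: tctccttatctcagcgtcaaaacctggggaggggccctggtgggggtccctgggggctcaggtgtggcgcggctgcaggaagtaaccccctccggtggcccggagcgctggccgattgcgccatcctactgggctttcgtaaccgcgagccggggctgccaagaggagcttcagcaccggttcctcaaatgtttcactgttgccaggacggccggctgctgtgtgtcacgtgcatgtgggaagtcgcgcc
RefSeq promoters were matched for 8 of the 10 genes, not for *Il10ra* and *Il10rb*. A GAS match occurred in 1 of the 8 promoters, that of *Ifnar2*, from 214 to 206 bases before the start site, and in 7.02% of all 32851 promoters. The interferon-stimulated response element (GAAA repeated after a gap of 2 bases) occurred in 0 of the 8 and in 2.98% of all. The Ets-IRF composite element (GGAA and, after a gap of 2 bases, GAAA), to which IRF4 binds together with PU.1, occurred in the promoter of *Il6st* and in 2.3% of all. GC boxes occurred in 6 of the 8 and in 32.7% of all, and some of the 4 in the promoter of *Ifngr2* overlap each other. A TATA box (TATAAA) occurred in 0 of the 8 and in 12.4% of all. All letters were searched on both strands. The promoter of *Ifngr2* had a GC content of 74.0%, above that of 95.1% of promoters. A match is a description of letters, and no binding was measured.

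*Ifnar1*, the signaling chain of the type I interferon receptor, was at 32.6 and 27.5 CPM under EV-RV, against 65.3 and 57.0 CPM under IRF4-RV. Each IRF4-RV library exceeded each EV-RV library. The log2 fold change was 1.02 (standard error, SE, 0.115, adjusted p = 0.000675 in edgeR). *Ifnar2*, which binds the interferon with high affinity, went from 26.9 and 27.3 CPM to 44.7 and 42.9 CPM, again without overlap. Its log2 fold change was 0.69 (SE 0.0863, adjusted p = 0.00116 in edgeR). So the transcripts of both chains of this receptor were higher, *Ifnar1* about 2.03-fold and *Ifnar2* about 1.62-fold.

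*Il10rb* was at 9.28 and 8.78 CPM under EV-RV, against 16.5 and 16 CPM under IRF4-RV. The groups were far apart relative to the replicates, with a log2 fold change of 0.85 (SE 0.109, adjusted p = 0.00133 in edgeR). *Ifngr2*, the signaling chain of the interferon gamma receptor, was at 26.1 and 25.9 CPM under EV-RV, against 36.0 and 33.0 CPM under IRF4-RV. Its log2 fold change of 0.41 (SE 0.0922, adjusted p = 0.0164 in edgeR) was the lowest of the 4 estimates. Without IRF4-RV replicate 1 it was 0.33 and no longer passed (edgeR adjusted p = 0.121). A predicted read-through gene, *Gm21970*, shares 315 exonic bases with *Ifnar2* and 569 with *Il10rb* on the same strand and had 0 counts in each library. Reads in the shared bases may have been left out of all 3 genes, depending on counting settings that are not given in the sources used here.

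Within 100 kb of these 4 genes, 7 other genes were tested, of which 1 was higher, 1 lower and 5 not called. Of all genes tested, 16% were called higher and 13.7% lower. *Tmem50b*, next to *Ifngr2*, was counted 765 and 838 times under EV-RV, against 1496 and 1562 times under IRF4-RV, a log2 fold change of 0.81 (SE 0.101, adjusted p = 0.00115 in edgeR). *Gart*, an enzyme of purine synthesis, was the lower gene, at -0.65 (edgeR adjusted p = 0.000952), and *Son*, a splicing factor gene, was at -0.08 (edgeR adjusted p = 0.643). The higher calls therefore ran from *Ifnar2* to *Tmem50b*, while the pseudogenes *Gm7856* and *Gm7860* and the noncoding *A930006K02Rik* between them and *Dnajc28*, which precedes *Gart*, were not called.

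**Figure D3:**
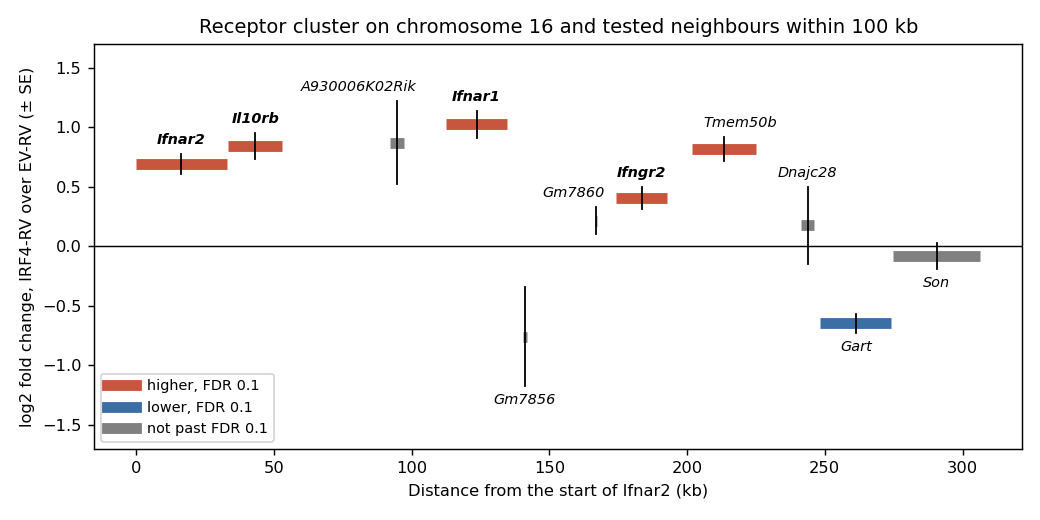
Log2 fold change (y axis, IRF4-RV over EV-RV, with the standard error as a thin line) of each tested gene along the cluster, drawn from its first to its last base as kb from the start of *Ifnar2* (x axis), with the 4 receptor genes in bold. The receptor genes and *Tmem50b* lie between 0.41 and 1.02 and *Gart* lies at -0.65.

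*Ifngr1* (ENSMUSG00000020009, chromosome 10, 19591949 to 19610229, plus strand), the chain that binds interferon gamma, was the most abundant of the 10 genes per length. It was at 52.9 and 55.5 CPM under EV-RV, against 59.4 and 54.5 CPM under IRF4-RV, so that the groups overlapped. The log2 fold change was 0.07 (95% interval -0.13 to 0.27, edgeR adjusted p = 0.609). Scaled by library size alone it was -0.018, and leaving out IRF4-RV replicate 1 gave -0.012.

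*Il10ra* (ENSMUSG00000032089, chromosome 9, 45253837 to 45269149, minus strand), the chain that binds IL-10, was low in all libraries. It was counted 36 and 27 times under EV-RV, against 116 and 77 times under IRF4-RV, or 1.08 and 0.856 CPM against 3.42 and 2.11 CPM. The groups did not overlap, but the IRF4-RV libraries differed from each other by more than the EV-RV libraries did. The log2 fold change was 1.51 (SE 0.332, adjusted p = 0.0148 in edgeR), and it ranged from 1.10 to 1.82 on leaving out single libraries.

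*Il6ra* (ENSMUSG00000027947, chromosome 3, 89864059 to 89913196, minus strand) had the largest change. It was counted 3 times and 1 time with EV-RV, at or under the lowest level that can be shown, and 99 and 73 times with IRF4-RV. Its level with IRF4-RV was 2.92 and 2.00 CPM, the lower of which is at least 21.1-fold higher than 3 counts in an EV-RV library (edgeR adjusted p = 0.000379). The fitted log2 fold change of 5.24 (standard error 0.523) depends on the handling of counts near 0, and without EV-RV replicate 1 it was 6.12. Per length *Il6ra* stayed low with IRF4-RV, at 0.285 ± 0.0751 RPKM (SD, n = 2). An antisense gene, *Gm42809*, overlaps 242 exonic bases of *Il6ra* and had 0 counts.

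IL6RA and IL10RA are also made by myeloid cells, whose markers were therefore counted. The 11 macrophage markers summed to 50 and 47 counts under EV-RV, against 289 and 274 counts under IRF4-RV. Of these, *Mrc1* alone, the mannose receptor, had 24 and 23 counts under EV-RV, against 260 and 230 under IRF4-RV. *Cd68* had 21 and 15 counts under EV-RV, against 25 and 29 under IRF4-RV, and *Cd14* had 0 and 5 against 4 and 9. The markers *Adgre1*, *Marco* and *Cd163* were at 0 in every library, and *Csf1r* had at most 3 counts. The 11 granulocyte markers summed to 40 and 40 counts under EV-RV, against 96 and 93 under IRF4-RV. Of these, *Ly6g* had 1 and 0 counts under EV-RV, against 71 and 58 under IRF4-RV, and *Csf3r*, the receptor for G-CSF, had 34 and 35 counts under EV-RV, against 22 and 29 under IRF4-RV. The higher sum thus rests on *Ly6g*, while *S100a8*, *S100a9*, *Ctsg*, *Camp* and *Ngp* were at 0 in every library. The part of myeloid cells in the counts of *Il6ra* and *Il10ra* was not tested. In bulk libraries fewer cells of a type and less RNA per cell cannot be told apart.

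*Il6st* (ENSMUSG00000021756, chromosome 13, 112464070 to 112510086, plus strand) did not pass the test. It was counted 44 and 86 times under EV-RV, against 36 and 125 times under IRF4-RV, or 1.32 and 2.73 CPM against 1.06 and 3.43 CPM. Replicate 2 was the higher library in each group, and the groups overlapped. The log2 fold change was 0.16 (95% interval -1.10 to 1.42, edgeR adjusted p = 0.869), an interval that holds both a large rise and a large fall. Without IRF4-RV replicate 2 it was -0.92 (edgeR adjusted p = 0.116), without EV-RV replicate 1 it was -0.29 (edgeR adjusted p = 0.8), and without IRF4-RV replicate 1 it was 0.75 and past the threshold (edgeR adjusted p = 0.0981).

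The sum of the stromal markers was likewise higher in replicate 2 of each group. All 10 together, among them *Col1a1*, *Col1a2*, *Cxcl12* and *Pdgfra*, had 1618 and 2873 counts under EV-RV, against 1638 and 8220 counts under IRF4-RV, which is 27.2 and 29.9 *Il6st* counts per 1000 stromal marker counts under EV-RV, against 22.0 and 15.2 under IRF4-RV. None of the 10 was at 0 in every library, but *Lum* and *Dcn* had at most 1 and 2 counts in a library. Of 7 tested 0 were called higher or lower (edgeR). *Osmr*, the oncostatin M receptor chain that pairs with gp130, had 7 and 18 counts under EV-RV, against 3 and 39 under IRF4-RV. The part of stromal cells in these counts was not tested.

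**Figure D4:**
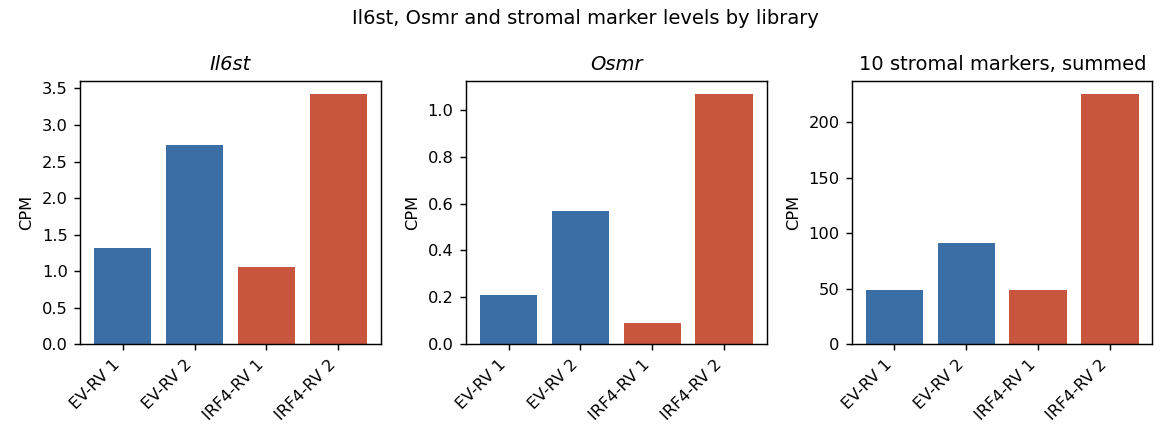
CPM of *Il6st*, *Osmr* and the sum of 10 stromal markers (y axes, each with its own scale from 0) in the 4 libraries, EV-RV in blue and IRF4-RV in red. In each panel the replicate 2 library is above the replicate 1 library of its group, and IRF4-RV replicate 2 is the highest, at 3.43 CPM for *Il6st* and 226 CPM for the stromal sum.

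The class I chains *Il4ra* (ENSMUSG00000030748, chromosome 7, 125552120 to 125579474) and *Il21r* (ENSMUSG00000030745, chromosome 7, 125603429 to 125633570) are neighbors on the plus strand, 23954 bases apart. *Il21r* was at 13.8 and 13.6 CPM under EV-RV, against 6.58 and 5.21 CPM under IRF4-RV. It was the only one of the 10 called lower, with a log2 fold change of -1.22 (SE 0.143, adjusted p = 0.000884 in edgeR), and on leaving out single libraries the value lay between -1.41 and -1.05. *Il4ra* was at 15.8 and 17.5 CPM under EV-RV, against 14.7 and 12.4 CPM under IRF4-RV. These groups did not overlap, but the log2 fold change of -0.30 (95% interval -0.58 to -0.01) did not pass (edgeR adjusted p = 0.13). It passed in 4 of 11 alternatives, with edgeR adjusted p = 0.047 without IRF4-RV replicate 1 (-0.44), 0.0218 with the replicate block, 0.063 with library size only and 0.0952 with a filter of 50 counts in 2 libraries. An antisense gene, *Gm44876*, overlaps 571 exonic bases of *Il4ra* and had 0 counts.

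Because these receptors signal as pairs of chains, the ratio of the chains per length was taken within each library, which no scaling factor can change. *Ifngr1* exceeded *Ifngr2*, with a log2 ratio of 1.42 and 1.50 under EV-RV, against 1.13 and 1.13 under IRF4-RV. That is a mean ratio of 2.76 against 2.18, nearer to balance with IRF4-RV. *Ifnar1* was below *Ifnar2*, with a log2 ratio of -0.56 and -0.83 under EV-RV, against -0.29 and -0.43 under IRF4-RV, also nearer to balance.

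*Il10ra* stayed far below *Il10rb*, at a ratio of 0.116 with EV-RV and 0.18 with IRF4-RV. *Il21r* relative to *Il2rg* had a log2 ratio of -1.71 and -1.80 under EV-RV, against -3.04 and -3.42 under IRF4-RV, a drop in the ratio from 0.296 to 0.107. *Il4ra* relative to *Il2rg* went from 0.199 to 0.136. *Il2rg* itself was at 32.3 and 34.1 CPM under EV-RV, against 38.9 and 40.0 CPM under IRF4-RV, a log2 fold change of 0.25 (SE 0.0868, adjusted p = 0.0781 in edgeR). For all 5 pairs the libraries of the groups did not overlap. No share over all genes was taken for ratios, and among single genes 61.3% of those tested did not overlap. The pairs are not independent, since *Il2rg* is in 2 of them and the ratios rest on the gene levels given above. With 2 libraries against 2, an exact permutation test cannot give a two-sided p below 0.333, which each pair had. Ratios with *Il6ra* or *Il13ra1* were not taken, since each had 3 counts or fewer in a library.

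**Figure D5:**
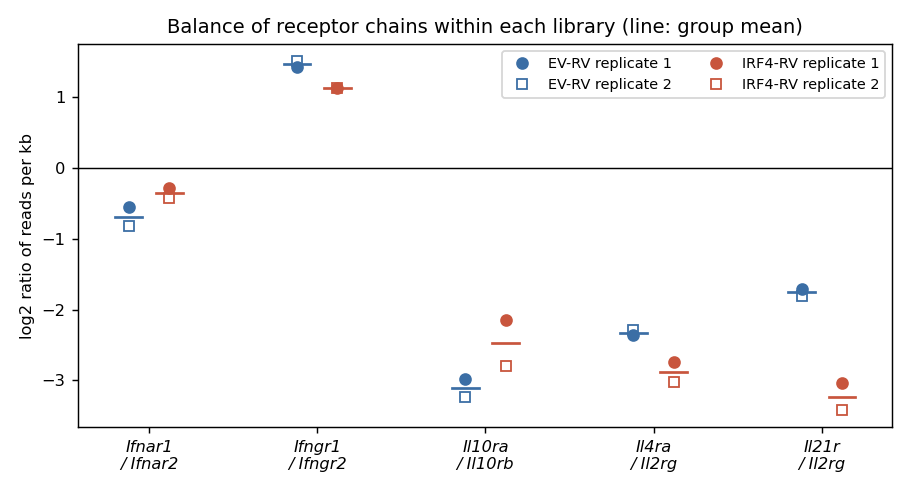
Log2 ratio of reads per kb of 5 pairs of receptor chains (y axis) in each library, EV-RV in blue and IRF4-RV in red, replicate 1 filled and replicate 2 open, lines for group means. The line at 0 marks equal levels per length, and the pair of *Il21r* and *Il2rg* has the largest shift, from -1.76 to -3.23.

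Of 13 other chains that pair with these receptors or belong to their families, 7 were tested, with 2 higher and 0 lower (0 also with DESeq2, and 0 at an unadjusted p under 0.05), against 29.7% of all genes called. *Ifnlr1*, the chain that joins IL10RB to bind lambda interferons, was at 7.13 and 8.62 CPM under EV-RV, against 18.0 and 15.8 CPM under IRF4-RV. It rose by 1.10 on the log2 scale (SE 0.136, adjusted p = 0.00112 in edgeR), so that both chains of the lambda interferon receptor were higher. *Il2rg* was the other, and its call was lost with DESeq2 (adjusted p = 0.157), library size only, a filter of 1 count, an FDR of 0.05 and each single library left out. *Il13ra1*, the alternative partner of IL4RA, had 1 and 17 counts under EV-RV, against 16 and 27 under IRF4-RV.

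Of 27 ligand genes, 16 had at least 1 count in a library, and only 4 had enough counts to be tested. Of these, 3 were higher, beside 16% of all genes called higher. *Ifng* had 0 and 0 counts under EV-RV, against 29 and 35 under IRF4-RV, at least 8.999-fold higher in the lower IRF4-RV library than 3 counts in an EV-RV library. It had enough counts to be tested through the IRF4-RV libraries alone. *Ifnb1* had 0 and 3 counts under EV-RV, against 3 and 0 under IRF4-RV, and the 4 type I interferon genes *Ifna1*, *Ifna2*, *Ifna4* and *Ifna5* had 0 counts in each library. *Il10*, *Il21* and *Il4* had at most 2, 3 and 6 counts in a library. *Il6* had 2 and 0 counts under EV-RV, against 5 and 14 under IRF4-RV. *Lif* and *Clcf1*, which act through gp130 with other chains, were higher by 1.64 and 1.08 on the log2 scale (edgeR adjusted p = 0.00101 and 0.0427). *Osm* was at -0.0046 (edgeR adjusted p = 0.984).

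Downstream of the receptors, 5 of 11 JAK and STAT genes tested were higher and 0 lower (0 also at an unadjusted p under 0.05 and with DESeq2), beside 16% of all genes called higher. With the replicate block 8 were higher, beside 23.4% of all genes. None of the kinases passed. *Jak1*, used by every receptor here, had a log2 fold change of 0.02 (edgeR adjusted p = 0.913), *Jak2* of 0.31 (edgeR adjusted p = 0.113), *Jak3* of 0.18 (edgeR adjusted p = 0.138) and *Tyk2* of 0.18 (edgeR adjusted p = 0.263). *Stat2* and *Irf9*, which act below IFNAR, both rose. *Stat2* went from 10.6 and 9.32 to 38.9 and 34.7 CPM, a log2 fold change of 1.88 (SE 0.114, adjusted p = 3.2e-05 in edgeR). *Irf9* went from 19.6 and 21.2 to 70.0 and 64.6 CPM, a log2 fold change of 1.72 (SE 0.0948, adjusted p = 2.27e-05 in edgeR). *Stat3*, used by the IL-6, IL-10 and IL-21 receptors, rose by 0.44 (edgeR adjusted p = 0.0208), and *Stat6*, used by the IL-4 receptor, by 0.35 (edgeR adjusted p = 0.0132).

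Of 18 regulators of these pathways, 6 were higher and 0 lower (0 also at an unadjusted p under 0.05 and with DESeq2), beside 29.7% of all genes called either way and 16% called higher. *Usp18*, which binds IFNAR2 and damps type I interferon signaling, went from 49 and 51 counts to 2277 and 3023, a log2 fold change of 5.60 (SE 0.161, adjusted p = 1.37e-06 in edgeR). *Btrc*, an F-box protein that directs the degradation of IFNAR1, rose by 0.94 (edgeR adjusted p = 0.000173). *Sh2b3*, an adaptor that restrains JAK signaling, rose by 0.57 (edgeR adjusted p = 0.00549). *Socs1* and *Socs3*, feedback inhibitors of JAK kinases, were at -0.05 and 0.08 on the log2 scale and did not pass.

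Textbook targets of the receptors were grouped by ligand. Over all genes tested, 16% were called higher and 29.7% either way. All 8 type I interferon targets rose, among them *Rsad2* by 7.03 on the log2 scale, *Ifit1* at least 28.5-fold and *Mx1* at least 9.53-fold. Both bounds were taken from the lower IRF4-RV library against 3 counts in an EV-RV library. With at most 8 counts in an EV-RV library, *Rsad2*, *Ifit1*, *Ifit3* and *Mx1* had enough counts to be tested through the IRF4-RV libraries alone. The IRF4-RV libraries were unequal for *Ifit1*, at 2.71 and 6.07 CPM. Of the targets of interferon gamma, 4 of 6 tested rose, with *Gbp5* at 2.67, *Gbp2* at 2.05 and *Irf1* at 1.38 on the log2 scale. The other 2, *Ciita* at 0.10 and *Socs1* at -0.05, did not pass (edgeR adjusted p = 0.888 and 0.757). Many of these genes respond to both kinds of interferon. Of 6 targets of IL-4 and IL-13 only *Mrc1*, which is also among the macrophage markers above, was tested, and it rose by 3.26. Of 8 STAT3 targets 3 were called, beside 29.7% of all genes. *Prdm1* rose by 2.13 and *Batf* and *Pim1* fell by 0.51 and 0.39, while 5 did not pass. *Prdm1* had 8 and 9 counts under EV-RV, against 46 and 35 under IRF4-RV. It too had enough counts to be tested through the IRF4-RV libraries alone.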

How the data were processed

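Bulk RNAseq of T8 cells was analyzed, with 2 EV-RV and 2 IRF4-RV libraries grouped by the titles in the labels. According to the paper's methods and the submitters' processing notes, the authors used STAR 2.4.0j for alignment to GRCm38 and featureCounts for counting. They deposited raw counts without normalization. How strand and multiply aligned reads were treated is not given in the sources used here. Of 55359 identifiers, 52083 were matched to GENCODE M21 for symbols, positions and exon lengths.

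Genes passing filterByExpr were tested with edgeR 4.0.16 in R 4.3.3, with TMM scaling, its quasi-likelihood F test, no replicate block and Benjamini-Hochberg adjustment over all genes at an FDR of 0.1, the cutoff of the study, which used DESeq2. Standard errors and 95% intervals come from the F statistic. The code was tested on simulated data. CPM use TMM-scaled library sizes. A floor of 3 counts covers counting error only. The p-values measure the spread between libraries of 1 line.

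Alternatives were DESeq2 1.42.0, its size factors in edgeR, library size only, filters of 1 count or of 50 counts in 2 libraries, an FDR of 0.05, the replicate block and each library left out.

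The members and lists were chosen with earlier results of these data known. Named are all members, *Irf4*, the 3 largest changes called per list, chain partners, the kinases, STATs and main ligands, tested neighbors within 100 kb on chromosomes 16 and 7, and markers with values beside a result. *Osmr*, *Osm*, *Socs1*, *Socs3*, *Ifit3*, *Ciita* and single marker genes were named after their values were seen. Some genes that this rule names are not reported here.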

Additional observations from a re-analysis of the deposited data

How the results depend on the processing

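Of the 10 receptor genes, 7 or 8 were called under each of the 11 alternatives, and *Ifnar1*, *Ifnar2*, *Il10ra*, *Il10rb*, *Il21r* and *Il6ra* were called in all of them with the same direction. The call of *Ifngr2* was lost in 1, without IRF4-RV replicate 1. *Il4ra* passed with library size only (-0.39), with a filter of 50 counts in 2 libraries (-0.31), with the replicate block (-0.30) and without IRF4-RV replicate 1. *Ifngr1* turned to -0.018 with library size only and to -0.012 without IRF4-RV replicate 1. With each library left out in turn, log2 fold changes ranged from -0.012 to 0.14 for *Ifngr1*, 0.33 to 0.47 for *Ifngr2*, -0.44 to -0.18 for *Il4ra* and -0.92 to 0.77 for *Il6st*. The cause of these changes was not tested.

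With library size only, 1743 genes were higher and 2865 lower, against 2340 and 2009, and the median over all genes tested lay at -0.08 on the log2 scale. With the replicate block 6394 genes were called in place of 4349, and 8 JAK and STAT genes in place of 5. Across genes, libraries that share a number deviated together from their group means with r = 0.26, and the labels give no pairing beyond the number. Of the other receptor chains, *Ifnlr1* alone, 1 in place of 2, was called with DESeq2, library size only, all genes with at least 1 count and an FDR of 0.05. With each library left out the count was 1 or 2, and with the replicate block it was 3, *Il13ra1* included. Counts for ligands, regulators and all targets together were within 1.5 times of the main count. Marker lists and single target lists were not run under the alternatives.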

Other observations

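Around *Il4ra* and *Il21r* on chromosome 7, 5 other genes within 100 kb were tested, of which 2 were lower, 0 higher and 3 not called (edgeR). *Nsmce1*, a subunit of the SMC5/6 complex, was counted 1704 and 1789 times under EV-RV, against 1278 and 1517 times under IRF4-RV, a log2 fold change of -0.44 (edgeR adjusted p = 0.0148). *Kdm8* was at -0.34 (edgeR adjusted p = 0.0676). *Gtf3c1*, next to *Il21r* and encoding a subunit of a factor for RNA polymerase III, was at 0.03 (edgeR adjusted p = 0.899). Around all 10 receptor genes, 21 neighbors that are not receptor genes of the list were tested, with 3 higher, 6 lower and 12 not called, beside 29.7% of all genes called, 16% higher and 13.7% lower.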
